A study of Ovis aries with 12 samples.

Results

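Fatty acids enter mitochondria as carnitine esters and are then shortened by beta oxidation, and 5 genes of this route and of mitochondrial uncoupling were followed in the right ventricle of the lamb. The genes were taken by their name in the count table and are CPT1A, CPT1B, SLC25A20, HADHA and UCP2, 5 of the 27054 rows. All 5 passed the filter on low counts that left 13065 genes for testing. CPT1 on the outer mitochondrial membrane joins long-chain acyl groups to carnitine and is the step that malonyl-CoA inhibits. CPT1A encodes the liver isoform and CPT1B the muscle isoform, which is the main form of the adult heart in the mammals studied. SLC25A20 encodes the carrier that exchanges acylcarnitine for carnitine across the inner membrane, HADHA the alpha subunit of the trifunctional protein, which carries out later steps of the oxidation of long chains, and UCP2 a carrier of the inner membrane from the uncoupling protein family. The heart before birth relies mostly on glucose and lactate, and use of fatty acids increases after birth.

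The tissue was snap-frozen free wall of the right ventricle of sheep, profiled by mRNA sequencing in 4 libraries each of fetal, control and shunt lambs. Fetal libraries came from lambs before birth, with no gestational age in the labels, and control libraries from lambs aged 4 to 6 weeks. Shunt libraries came from lambs of that age range which had received a graft between aorta and pulmonary artery in an operation before birth, so that blood passed from left to right and the right ventricle worked against a raised pressure. The labels give no breed or sex and do not say whether control lambs had an operation. Nor do they say that each library is a different animal, so p-values speak for the variation among these libraries, part or all of which could be technical.

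Total counts were 19111348 to 44946875 per library. Counts on the 13 mitochondrially encoded genes took 26.7% to 41.2% of the fetal, 43.5% to 50.0% of the control and 45.6% to 72.6% of the shunt libraries, with shunt 1 at 72.6% and shunt 2 at 71.4%. These libraries kept 7152139 and 7140136 counts on all other genes, and results that rest on them are given with and without them. Levels are given as CPM, the usual count scaled to library size, here with the trimmed mean of M values (TMM). Cardiomyocyte markers were abundant in every library. MYL2, TPM1, MYOZ2 and MB, the 4 of 18 listed markers with a name in the table, summed to 20390 to 30430 CPM in fetal, 26170 to 33000 in control and 19920 to 36170 in shunt libraries. No transcript lengths were used here, so levels are compared between libraries and never between genes. In bulk tissue, fewer cells of a type and less RNA per cell cannot be told apart.

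Between fetal and control ventricles all 5 genes had positive log2 changes, as did 49.7% of all genes tested, and SLC25A20 and UCP2 rose. These 2 of 5 genes were called by edgeR's quasi-likelihood test at an adjusted p under 0.05, against 5.17% of all genes in either direction and 2.66% higher in controls. At an unadjusted p under 0.05 there were 4 of 5, against 18.4% of all genes. Between shunt and control ventricles none of the 5 was called by edgeR, against 4.00% of all genes. DESeq2 called none of the 5 either, against 1981 of the 13065 genes. At an unadjusted edgeR p under 0.05 there were also 0 of 5, against 28.0% of all genes, and 3 of 5 changes were positive, against 50.7%. Between shunt and fetal ventricles SLC25A20 and UCP2 were again the 2 called, both higher in shunt, against 15.7% of all genes in either direction and 9.16% higher in shunt. All 5 changes were positive, against 49.2% of all genes, and 4 had an unadjusted p under 0.05, against 32.8%. The comparisons share libraries, so the second pair of calls is not independent of the first. The median log2 change of the 5 genes was 0.59, 0.14 and 0.79 in the order given, beside -0.0023, 0.0094 and -0.012 over all genes. These directions hold for TMM. With library totals as the only scaling, where the median of all genes was at -0.41, -0.59 and -1.02, all 5 changes were still positive for control against fetal and all 5 were negative for shunt against control (-0.46 to -1.03), and for shunt against fetal CPT1A, CPT1B and HADHA were negative (-0.35, -0.40 and -0.84).

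**Figure D1:**
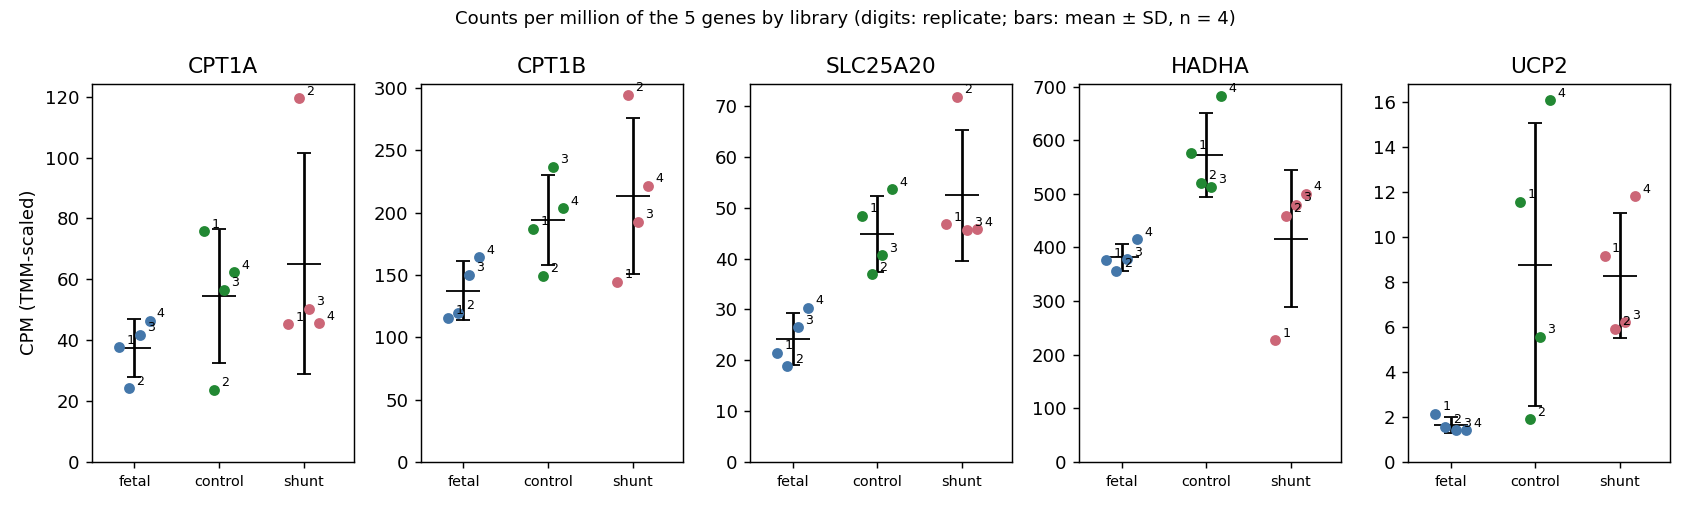
CPM (TMM-scaled, linear axes from 0, a separate scale for each gene) of CPT1A, CPT1B, SLC25A20, HADHA and UCP2 in the 12 libraries; points are libraries with their replicate digit, and black bars are the mean ± SD of 4. SLC25A20 lies at 18.8 to 30.3 CPM in fetal libraries and above that range in all others, and shunt 1 is low for HADHA at 227 CPM.

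CPT1A (ENSOARG00000016505), the liver isoform, varied widely among libraries of the same group. It stood at 37.6, 24.2, 41.8 and 46.4 CPM in fetal 1 to fetal 4. In control 1 to control 4 it stood at 75.7, 23.6, 56.5 and 62.3 CPM. In shunt 1 to shunt 4 it stood at 45.1, 119.5, 50.3 and 45.5 CPM. Control 2 lay below every fetal library and shunt 2 above every other library, so all 3 groups overlapped. The means were 37.5 ± 9.56, 54.5 ± 22.1 and 65.1 ± 36.3 CPM (SD, n = 4) in fetal, control and shunt libraries. The log2 change of control against fetal was 0.54 (95% interval -0.25 to 1.33, edgeR adjusted p = 0.477), which leaves a decrease to 0.843-fold and an increase to 2.51-fold within the interval. Shunt against control was 0.25 (-0.54 to 1.04, edgeR adjusted p = 0.687) and turned to -0.23 without shunt 2. Without control 2 it was -0.0050. Shunt against fetal was 0.79 (0.00038 to 1.59, edgeR adjusted p = 0.152), and 0.31 without shunt 2.

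CPT1B (ENSOARG00000019949), the muscle isoform, varied less, with a coefficient of variation of 17.1% to 29.5% within the groups against 25.5% to 55.8% for CPT1A. It stood at 116, 119.7, 150.2 and 164 CPM in fetal 1 to fetal 4 and at 187, 149, 237 and 204 CPM in control 1 to control 4. In shunt 1 to shunt 4 it stood at 144, 294, 193 and 221 CPM. Of the 4 control libraries 3 lay above the highest fetal value, and so did 3 of the 4 shunt libraries, while control 2 and shunt 1 lay within the fetal range. Control against fetal had a log2 change of 0.50 (95% interval 0.010 to 0.99, edgeR adjusted p = 0.261) and shunt against control one of 0.14 (-0.35 to 0.62, adjusted p = 0.732). Shunt against fetal had one of 0.63 (0.14 to 1.12, edgeR adjusted p = 0.0719). This last change missed the threshold with edgeR and passed it with DESeq2 (adjusted p = 0.0337) and in edgeR without shunt 1 (log2 0.78, adjusted p = 0.0302), and scaled by library totals alone it was -0.40 (adjusted p = 0.202).

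The balance of the CPT1 isoforms does not depend on how libraries are scaled, because both counts come from the same library. CPT1A made up 24.5%, 16.8%, 21.8% and 22.0% of the counts on both genes in fetal 1 to fetal 4. The share was 28.8%, 13.7%, 19.3% and 23.4% in control 1 to control 4, and 23.8%, 28.9%, 20.7% and 17.1% in shunt 1 to shunt 4. The exact 95% binomial intervals, which cover counting error only, were narrow beside this spread, at 28.1% to 29.6% for control 1 and 12.6% to 14.8% for control 2. The highest and the lowest share of the fetal and control libraries were thus both in the control group, and the 3 groups overlapped. Mean shares of CPT1A were 21.3% ± 3.22 before birth, 21.3% ± 6.41 in controls and 22.6% ± 5.00 with the shunt (SD, n = 4). In counts, CPT1B had 3.79 ± 0.802 per CPT1A count before birth, 4.06 ± 1.66 in controls and 3.59 ± 1.01 with the shunt, a ratio not corrected for transcript length.

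The log2 of the CPT1B to CPT1A ratio differed by 0.035 between control and fetal libraries, and the two-sided exact permutation test gave p = 0.943. It differed by -0.13 between shunt and control (exact p = 0.657) and by -0.10 between shunt and fetal libraries (exact p = 0.743), and all were at 0.943 when adjusted over the 3 comparisons. Shifts in the ratio from 0.50-fold to 2.04-fold for control against fetal were not rejected by this test at 0.05. For shunt against control the range was 0.391-fold to 1.97-fold, and for shunt against fetal 0.50-fold to 1.58-fold. The smallest p this test can give with 4 libraries a group is 0.0286.

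**Figure D2:**
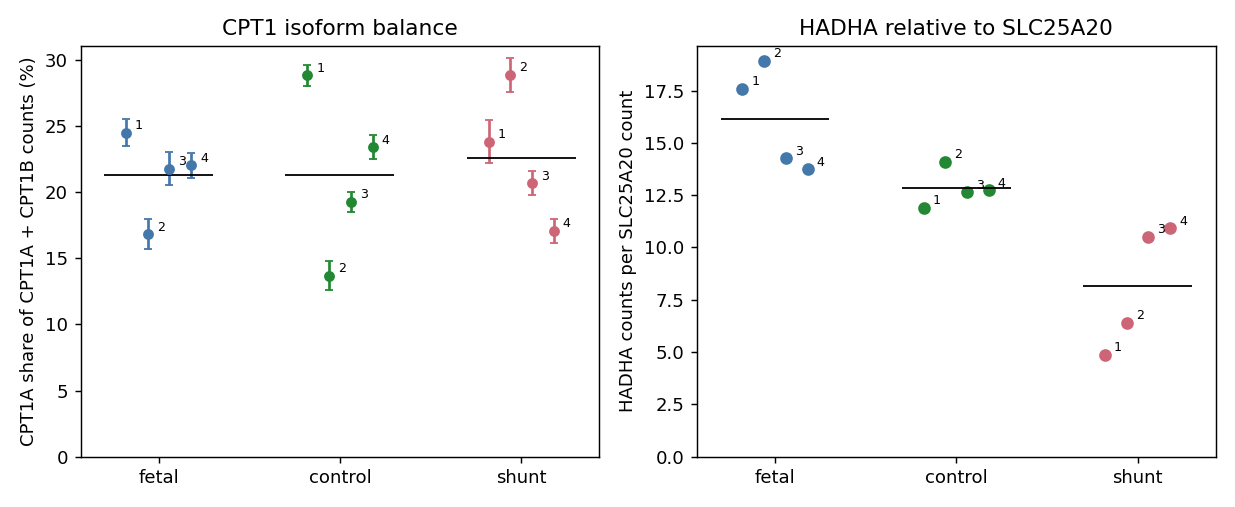
Left, CPT1A as a percentage of CPT1A and CPT1B counts in each library, with exact 95% binomial intervals; right, HADHA counts per SLC25A20 count; digits are replicates and black lines are means of 4. The isoform shares of the 3 groups overlap and run from 13.7% to 28.9% over all libraries. The 4 shunt libraries lie at 4.86 to 10.9 HADHA counts per SLC25A20 count, below the 11.9 to 14.1 of the controls.

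SLC25A20 (ENSOARG00000016084), the acylcarnitine carrier, stood at 21.4, 18.8, 26.5 and 30.3 CPM in fetal 1 to fetal 4. It stood at 48.4, 36.9, 40.6 and 53.6 CPM in control 1 to control 4 and at 46.7, 71.8, 45.6 and 45.8 CPM in shunt 1 to shunt 4. With TMM every control and every shunt library lay above the highest fetal library, and control and shunt libraries overlapped. Of all genes tested, 9.18% were higher in controls than in fetal libraries with no overlap, and 9.12% were higher in shunt than in fetal libraries in that way. With library totals as the only scaling all 3 groups overlapped. SLC25A20 was then at 30.19 to 41.58 CPM in fetal, 38.77 to 59.88 in control and 26.22 to 45.91 in shunt libraries.

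From fetal to control libraries SLC25A20 rose 1.85-fold (95% interval 1.36 to 2.52), with means of 24.2 ± 5.13 and 44.9 ± 7.52 CPM (SD, n = 4) and a log2 value of 0.89 (SE 0.208, edgeR adjusted p = 0.0232). The call was lost without fetal 1, fetal 2, control 1 or control 4 (edgeR adjusted p = 0.0876, 0.0871, 0.0687 and 0.0895). With library totals as the only scaling, which shifts the median of all genes by -0.41, the change was 0.51 (adjusted p = 0.197). Shunt libraries averaged 52.5 ± 12.9 CPM, and shunt against fetal was 1.11 (SE 0.209, edgeR adjusted p = 0.00414), with adjusted p up to 0.021 when any 1 of the 12 libraries was left out. With library totals this change was 0.048 (adjusted p = 0.863). Shunt against control was 0.22 (95% interval -0.22 to 0.66, edgeR adjusted p = 0.498), and 0.024 without shunt 2.

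HADHA (ENSOARG00000018593), the trifunctional protein subunit, stood at 376, 356, 378 and 415 CPM in fetal 1 to fetal 4. With TMM this was the narrowest spread among the 5 genes in that group, with a coefficient of variation of 6.51%. With library totals as the only scaling it was 13.5%, against 12.4% for CPT1B. In control 1 to control 4 HADHA stood at 576, 520.1, 513 and 683 CPM, and in shunt 1 to shunt 4 at 227, 459, 479 and 500 CPM. With TMM all 4 control libraries lay above every fetal and every shunt library. Shunt 2, shunt 3 and shunt 4 lay between the fetal and the control libraries, and shunt 1 lay below both. Of all genes tested, 9.18% were higher in control than in fetal libraries with no overlap. In that way 6.07% were lower in shunt than in control libraries. With library totals as the only scaling both separations were lost. Control 3, at 489.9 CPM, then lay below shunt 4 at 501.5 CPM and within the fetal range of 430.5 to 584.4 CPM.

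HADHA averaged 381 ± 24.8, 573 ± 78.3 and 416 ± 127 CPM (SD, n = 4) in fetal, control and shunt libraries. Control against fetal was 0.59 on the log2 scale (95% interval 0.098 to 1.08, edgeR adjusted p = 0.171), a change that did not pass in the model of all 12 libraries. It did pass without shunt 1 (adjusted p = 0.0371), without shunt 1 and shunt 2 (0.0104), and in a fit of the fetal and control libraries alone (0.0102). Shunt against control was -0.46 (-0.95 to 0.027, edgeR adjusted p = 0.201). This value was -0.26 without shunt 1, -0.25 without shunt 1 and shunt 2, and -1.03 with library totals (adjusted p = 0.0675), where the median of all genes was at -0.59. Shunt against fetal was 0.13 (-0.36 to 0.61, edgeR adjusted p = 0.734) with TMM and -0.84 with library totals (adjusted p = 0.0417), where the median of all genes was at -1.02, so its direction depends on the scaling.

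Set against SLC25A20 of the same library, which removes the scaling, HADHA had 17.6, 18.9, 14.3 and 13.7 counts per SLC25A20 count in fetal 1 to fetal 4. The ratio was 11.9, 14.1, 12.6 and 12.7 in control 1 to control 4, and 4.86, 6.39, 10.5 and 10.9 in shunt 1 to shunt 4. Shunt libraries lay below all others, with shunt 1 and shunt 2, the libraries with the highest mitochondrial share, lowest. Shunt 3 and shunt 4, with mitochondrial shares of 54.6% and 45.6%, were also below the lowest control. Per CPT1B count, HADHA had 2.52 to 3.25 counts in fetal, 2.17 to 3.49 in control and 1.56 to 2.49 in shunt libraries, and control and shunt overlapped through control 3. SLC25A20 had 157 to 185 counts per 1000 CPT1B counts in fetal, 172 to 263 in control and 207 to 324 in shunt libraries, and shunt and fetal did not overlap. These ratios were chosen among the pairs of the 5 genes after their values were seen and are given with no test. How often other gene pairs separate the groups in this way was not computed. The part of the mitochondrial share in these ratios was not tested.

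**Figure D3:**
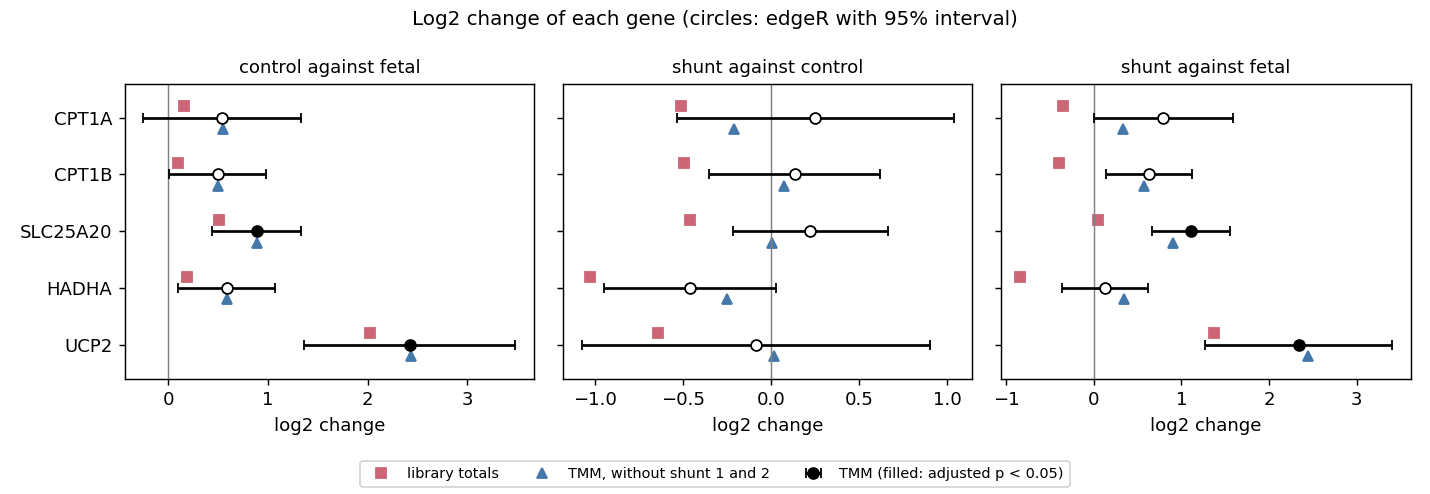
Log2 change of each gene in the 3 comparisons; circles are edgeR estimates with TMM and their 95% intervals (filled where the adjusted p is under 0.05), squares use library totals as the only scaling and triangles leave out shunt 1 and shunt 2. SLC25A20 and UCP2 are filled against fetal libraries, no gene is filled for shunt against control, and in each comparison the squares lie left of the circles.

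UCP2 (ENSOARG00000008561), the uncoupling family carrier, had few counts, 32 to 91 in each fetal library and 41 to 577 in the others. It stood at 2.14, 1.56, 1.41 and 1.41 CPM in fetal 1 to fetal 4. It stood at 11.5, 1.88, 5.54 and 16.1 CPM in control 1 to control 4 and at 9.15, 5.90, 6.20 and 11.8 CPM in shunt 1 to shunt 4. Of the 8 libraries after birth, control 2 alone lay within the fetal range, and controls spread 8.53-fold from lowest to highest against 2.00-fold in shunt libraries. Control against fetal, 8.76 ± 6.29 against 1.63 ± 0.35 CPM (SD, n = 4), was a rise of 5.36-fold (95% interval 2.57 to 11.2, log2 2.42, edgeR adjusted p = 0.0128). Shunt libraries, at 8.26 ± 2.78 CPM, did not overlap with fetal libraries and were higher by 5.05-fold (2.42 to 10.5, log2 2.34, edgeR adjusted p = 0.00802). Of all genes tested, 9.12% were higher in shunt than in fetal libraries with no overlap. With library totals as the only scaling shunt 2, at 2.69 CPM, lay below fetal 1 at 3.33 CPM. Both UCP2 calls against fetal libraries held with TMM without each single library, with edgeR adjusted p up to 0.0457 and 0.0306. With library totals control against fetal was 2.02 on the log2 scale and just missed the threshold (adjusted p = 0.0517), and shunt against fetal was 1.38 and passed (adjusted p = 0.0493). Shunt against control was -0.085 (95% interval -1.08 to 0.91, edgeR adjusted p = 0.925), so that changes of 0.474-fold to 1.87-fold lie within the interval.

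UCP2 is also known from macrophages and fat tissue of mouse and human, and markers of both cell types are given beside it. Of 15 listed myeloid markers MRC1, CD14, LYZ, ITGAM and CD86 had a name in the table and 3 were tested, none called in any of the 3 comparisons. Their summed level was 5.72 to 14.0 CPM in fetal, 14.8 to 27.1 in control and 10.5 to 24.7 in shunt libraries. Control 1 and control 4, the controls with the highest UCP2, had the highest myeloid sums of the controls, at 25.2 and 27.1 CPM, and control 2, with the lowest UCP2, the lowest at 14.8 CPM. The sums of the other groups did not follow this order. Shunt 2 had the highest myeloid sum of its group, 24.7 CPM, with the lowest UCP2, and fetal 1 the lowest sum of its group, 5.72 CPM, with the highest UCP2. MRC1 made up most of the sum in every library, at 22.3 CPM in shunt 2. CD14, LYZ, ITGAM and CD86 were instead each highest of the group in shunt 4, the shunt library with the highest UCP2. Their levels there were 4.01, 1.09, 0.787 and 0.637 CPM. LYZ was at 0 in 1 library. Of 9 adipocyte markers ADIPOQ, PLIN1, FABP4, LIPE and PPARG had a name in the table, and they summed to 3.22 to 7.91 CPM in fetal, 6.38 to 21.6 in control and 9.63 to 119.9 in shunt libraries. The defining markers were near 0, with PLIN1 at 0 in 7 and ADIPOQ at 0 in 3 of 12 libraries, and FABP4 made up most of the sum in shunt 1, shunt 2 and shunt 3, at 36.2, 63.1 and 113 CPM. In shunt 4 FABP4 was at 3.30 CPM, below PPARG at 4.34 CPM. Shunt 4, with the lowest adipocyte sum in its group, had the highest UCP2 of the group. Among controls, control 1 and control 4 had the highest adipocyte sums, at 21.6 and 12.2 CPM, and control 2 the lowest, at 6.38 CPM. Fetal 3 had the highest adipocyte sum of the fetal libraries, 7.91 CPM, with UCP2 at 1.41 CPM. The part of these cell types in the UCP2 levels was not tested.

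**Figure D4:**
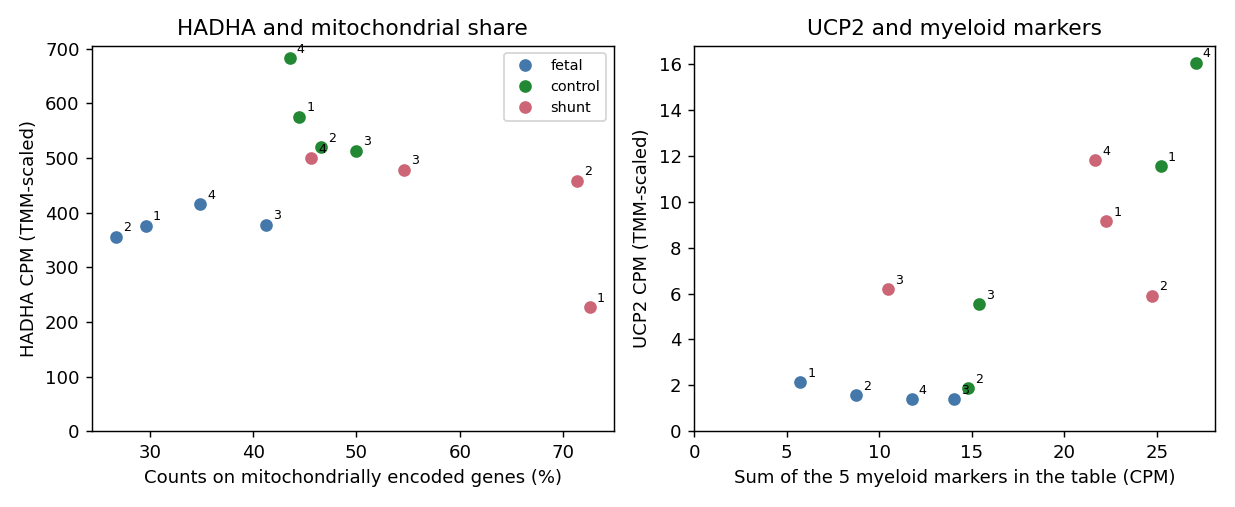
Left, HADHA in CPM (TMM-scaled) against the percentage of counts on mitochondrially encoded genes; right, UCP2 in CPM against the summed CPM of the 5 myeloid markers with a name in the table; points are the 12 libraries with their replicate digit. Shunt 1 combines the highest mitochondrial share, 72.6%, with the lowest HADHA, 227 CPM, while shunt 2, at 71.4%, has 459 CPM. Control 4 has the highest UCP2, 16.1 CPM, and the highest myeloid sum, 27.1 CPM, while shunt 2, with a sum of 24.7 CPM, has the lowest UCP2 of its group, 5.90 CPM. MRC1 makes up most of the sum in every library, at 22.3 CPM in shunt 2.

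Of the other genes of fatty acid use, few carry a name in the table. None of 19 further enzymes of mitochondrial beta oxidation and none of 6 of peroxisomal beta oxidation matched a name, so HADHA stands here alone for the oxidation steps. Of 16 genes for uptake and activation 5 were tested, and from fetal to control all 5 had positive changes and 2 rose, with a median log2 change of 1.77. The risers were FABP5, a cytoplasmic fatty acid binding protein (log2 2.23, SE 0.350, edgeR adjusted p = 0.00292), and LPL, the lipase that frees fatty acids from lipoproteins (1.77, SE 0.365, adjusted p = 0.0132). Between shunt and control 1 of the 5 rose and 1 fell, with a median of 0.0063. FABP5 rose (1.46, edgeR adjusted p = 0.0403) and LIPE, hormone-sensitive lipase, fell (-1.90, adjusted p = 0.0487), while LPL stood at -1.25 (adjusted p = 0.0579). FABP4, the fatty acid binding protein of fat cells, macrophages and endothelium, and FABP5 rose between fetal and shunt (log2 7.86 and 3.69, edgeR adjusted p = 0.00816 and 0.000179), 2 of 5 with a median of 0.52. Without shunt 1 and shunt 2 the calls between shunt and control were lost, with FABP5 at 0.88 (adjusted p = 0.196) and LIPE at -2.18 (0.0936). With library totals FABP5 between shunt and control (0.67, adjusted p = 0.0977) and LPL between control and fetal (1.40, adjusted p = 0.0504) were not called. The log2 value of FABP4 rests on a fetal mean of 0.273 CPM and depends on the model's handling of low counts.

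Of 6 genes around the carnitine shuttle ACACA was tested, which makes the malonyl-CoA that inhibits CPT1. It averaged 9.21, 8.02 and 11.7 CPM in fetal, control and shunt libraries, with no call in any comparison (edgeR adjusted p = 0.188 to 0.735). Of 8 genes of uncoupling and adenine nucleotide carriers 3 were tested, and none passed from fetal to control (median log2 -0.18). The ADP/ATP carrier gene SLC25A5 was the 1 that rose from control to shunt (log2 1.11, SE 0.198, edgeR adjusted p = 0.0276; median 0.92). SLC25A4, the ADP/ATP carrier of heart and muscle, and SLC25A5 rose from fetal to shunt (1.07 and 0.72, edgeR adjusted p = 0.00806 and 0.0249; median 0.74). With library totals none of these carriers was called, and SLC25A5 in shunt against fetal turned to -0.28 (adjusted p = 0.447), beside the median of -1.02 over all genes. SLC25A14 averaged 2.26, 1.98 and 3.83 CPM in fetal, control and shunt libraries and was not called. ADP/ATP carrier genes and FABP5 have close copies in mammalian genomes, and their levels are uncertain where reads were shared. Of 20 regulators of oxidative metabolism PPARG, THRA and THRB were tested. None was called from fetal to control (median 0.49) or control to shunt (median -0.60), and PPARG, a nuclear receptor of fat cells and macrophages, rose from fetal to shunt (1.59, edgeR adjusted p = 0.0114; median 0.45), a call lost without shunt 1 and shunt 2 (1.06, adjusted p = 0.0932) and with library totals (0.48, adjusted p = 0.231). The thyroid hormone receptor genes THRA and THRB stood at -0.95 and -0.60 from control to shunt (edgeR adjusted p = 0.0678 and 0.235).

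As a description of pattern, up to 3 named genes with the highest Pearson r of log2 CPM over the 12 libraries are given for each of the 5, among 329 candidates with a mean of at least 5 CPM. The points share groups and scaling, so no p is given. For SLC25A20 they included FABP5 (r = 0.941, Spearman rho = 0.874) and PDXK (0.917 and 0.951). For UCP2 they were PDXK (r = 0.90, rho = 0.867), TIMP3 (0.842 and 0.804) and IDH1 (0.808 and 0.699). HADHA was most like FHL1 (r = 0.939, rho = 0.895), FH (0.924 and 0.951) and BTG3 (0.887 and 0.86). For CPT1A the first was CPT1B (r = 0.798, rho = 0.804), followed by SLC25A20 (0.764 and 0.79) and ZFAND5 (0.739 and 0.49). For CPT1B they were HACD1 (r = 0.854, rho = 0.804), PSMD4 (0.85 and 0.846) and SLC25A20 (0.843 and 0.685). Of these likenesses 3 were between the 5 genes themselves, while HADHA had r of 0.308 to 0.535 with the other 4.

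In the remaining marker lists no tested gene was called between shunt and control. Among cardiomyocyte markers MB, myoglobin, rose from fetal to control (log2 1.05, edgeR adjusted p = 0.0218) as 1 of 4. Among lymphocyte markers, 4 of 13 in the table and 3 tested, GNLY rose from fetal to control and to shunt (edgeR adjusted p = 0.0417 and 0.0286). The list summed to 2.90 CPM or less in every library, with CD3D at 0 in 1 and GNLY at 0 in 2. The endothelial genes KDR and AQP1, 2 of 10, summed to 107 to 118 CPM in fetal, 61.4 to 84.8 in control and 52.5 to 134 in shunt libraries, with no call. DCN, the 1 of 10 fibroblast markers, and CNN1, the 1 of 8 smooth muscle and pericyte markers, were not called either, and of 8 red blood cell markers none matched a name. With library totals the MB and GNLY calls were lost (edgeR adjusted p = 0.209 for MB, 0.0828 and 0.052 for GNLY). The part of these cell types in the levels of the 5 genes was not tested.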

How the data were processed

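Per the labels' protocols, the RNA (RNeasy Plus Universal Mini) went into stranded mRNA libraries (QIAseq), which a NextSeq read from both ends at 75 bases. The file deposited by the authors holds raw counts, named total counts per the file headers, with 1 row a gene. Aligner, counter, genome build and use of strand: not given in the sources used here. Columns were matched to samples by library name, and 0 columns were left unused.

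Genes were filtered with filterByExpr by group and scaled by TMM (factors 0.455 to 1.61). They were tested with edgeR 4.0.16 in R 4.3.3, in 1 quasi-likelihood model (glmQLFit robust, glmQLFTest) of the 12 libraries, with Benjamini-Hochberg adjustment over 13065 genes and a call at an adjusted p under 0.05. The SE is the size of a log2 change over the square root of its F. Log2 CPM used a prior count of 2, and 0.5 was added to each count in the log2 CPT1 ratio. DESeq2 1.42.0 served as an alternative. Replicate libraries differed beyond sampling noise (smallest chi-square per gene 24.3).

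The genes, the lists and the tests were chosen with earlier results of these data known. Named genes were the 5 members and, from each pathway list, up to 4 tested genes with the smallest p, and likeness used the rule given with it; 1 gene that this rule names is not reported here. Of 13065 genes tested 479 carry a symbol. In simulated counts with known changes, edgeR recovered 20.0% of 2-fold and 75.8% of 4-fold changes for control against fetal among 12940 genes, 28.8% and 80.0% for shunt against control among 12924, and 24.2% and 78.5% for shunt against fetal among 12935. For 1.5-fold changes these were 0%, 1.49% and 0%. Each simulation changed 65 to 67 genes of each fold, drawn at random, while 675, 522 and 2048 genes were called in the data. The shares are thus not recovery rates for the 5 genes. A missing call of CPT1A, CPT1B or HADHA does not show that the gene was unchanged.

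The 5 symbols were found in the RefSeq gene table of sheep assembly ARS-UI_Ramb_v3.0, which was used for neighbours only. There LOC105603546 overlaps SLC25A20 and the lncRNA LOC121816635 overlaps UCP2, and without known strand use their reads cannot be told apart. CHKB lies next to CPT1B, HADHB next to HADHA, and UCP3 near UCP2. No sequences or coordinates were used here.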

Additional observations from a re-analysis of the deposited data

Results flagged for a closer look

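In 3 of 21 groups of 4 libraries checked, 1 library stood farther from the others than Dixon's 95% limit of 0.829 (gap to the nearest value divided by the range). Chance gives about 1 in 20. All 3 were in the shunt group. CPT1A was at 119.5 CPM in shunt 2 against 45.1 to 50.3 CPM in the other shunt libraries. SLC25A20 was at 71.8 CPM in shunt 2 against 45.6 to 46.7 CPM. HADHA was at 227 CPM in shunt 1 against 459 to 500 CPM. Shunt 1 and shunt 2 are the libraries with 72.6% and 71.4% of counts on mitochondrially encoded genes and with TMM factors of 0.561 and 0.455. The part of this in the 3 values was not tested. With library totals as the only scaling, SLC25A20 in shunt 2 was at 32.7 CPM, inside the 26.2 to 45.9 CPM of the others, and CPT1A in shunt 2 at 54.4 CPM against 25.3 to 45.7 CPM. HADHA in shunt 1 was then at 127.3 CPM against 208.8, 368.6 and 501.5 CPM in shunt 2, shunt 3 and shunt 4.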

How the results depend on the processing

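Library totals as the only scaling shifted the median of all genes to -0.41, -0.59 and -1.02 in the order control over fetal, shunt over control, shunt over fetal, used throughout. It ended the calls of SLC25A20 (log2 0.51 against fetal in control, 0.048 in shunt) and of UCP2 in control against fetal (2.02), and HADHA in shunt against fetal turned from 0.13 to -0.84 and was called lower. Calls over all genes were then 99 higher and 706 lower, 13 and 582, and 137 and 7796 (7933 in all), against 348 and 327, 301 and 221, and 1197 and 851 with TMM. Non-mitochondrial totals, an alternative chosen after seeing the data, moved the medians to -0.098, -0.13 and -0.25 and gave 265 and 376, 118 and 379, and 632 and 1658, with no call of the 5 genes changed. DESeq2 called 1248, 1981 and 2991 genes against 675, 522 and 2048, and CPT1B passed in shunt against fetal (0.66). Fits to the groups compared called 1913, 4 and 1073, and HADHA passed in control against fetal (0.59). Without shunt 1 and shunt 2 the counts were 1672, 64 and 1314 and HADHA passed there too (0.59). SLC25A20 and UCP2 in shunt against fetal were then at 0.90 and 2.45 (edgeR adjusted p = 0.0143 and 0.0388). CPT1A in shunt against control turned to -0.21 and was not called.

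Deviations of same-numbered libraries from their group means correlated from -0.19 to 0.154. These values gave no sign of pairing by replicate number, but with 4 libraries a group they cannot exclude it. With the replicate block 61 genes were called for shunt against control, and SLC25A20 in control against fetal was at 0.89 (edgeR adjusted p = 0.0519). No other call of the 5 genes changed with the block. For the CPT1 ratio the block cannot give p under 0.125.

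When each library was left out in turn, calls ranged from 259 to 886, 6 (without control 2) to 2169 (without shunt 4) and 957 to 2855. In control against fetal SLC25A20 ranged from 0.79 to 1.03 (called in 8 of 12) and HADHA from 0.51 to 0.65 (1 of 12), and CPT1B in shunt against fetal from 0.43 to 0.78 (1 of 12). The log2 CPT1 ratio ranged from -0.21 to 0.25, -0.34 to 0.11 and -0.26 to 0.066 with no exact p under 0.314, and without shunt 1 and shunt 2 it was 0.18 and 0.21 for shunt against control and against fetal. RLE size factors, TMM without mitochondrial genes and no filter changed no call of the 5 genes. Depth limits UCP2 most, with as few as 32 counts in a library.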
